A study of Mus musculus with 22 samples.

Results

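The mitochondrially encoded genes are the genes of the mitochondrial DNA itself. They were taken as every gene that the count tables place on chromosome MT, which gave 37 of 47729 genes: 13 protein-coding genes, 2 ribosomal RNA (rRNA) genes and 22 transfer RNA (tRNA) genes. Their counts come from RNA-seq libraries of mouse embryonic stem cells (ES cells) that carry the normal Dux cluster, no Dux or, as the name Dux n=1 is read here, 1 Dux copy. Dux encodes a transcription factor of the early embryo, and the study asks what its duplicated cluster adds to the activation of early embryonic genes, without treatment and after lowering DNA methylation.

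The untreated set has 10 libraries. They are E14 (a mouse ES cell line, 3 libraries), Dux-KO (3 CRISPR-Cas9 clones, numbered 15, 22 and 52) and Dux n=1 (4 CRISPR-Cas9 clones, numbered 17, 22, 31 and 40). The other 12 libraries form the treated set: WT, KO22 and N22, each in 2 libraries with the solvent DMSO and in 2 after 3 days with GSK-3484862, which degrades the methyltransferase DNMT1. Here KO22 and N22 are taken as 1 Dux-KO clone and 1 Dux n=1 clone, so genotype and clone cannot be told apart there. The dose is given as 1 uM in the treatment protocol and as 2 uM in the design text, and the parent line of the WT cells is not given in the sources used here. All cells grew in medium with serum and LIF. Nothing in the labels says that libraries of 1 group came from separate cultures, so the tests speak only for the spread among these libraries, which may be technical. Total counts ranged from 15803194 to 19427794 per library. All 8 ES cell markers examined were expressed in every library (Pou5f1 at a CPM, the count scaled to a common library total, of 848 to 1156). Of 9 fibroblast markers, Col3a1, Postn, Dcn and Lum were at 0 in 15, 19, 18 and 17 of 22 libraries, while Vim (131 to 319 CPM), Thy1 (8.48 to 50.1), Pdgfrb (2.49 to 17.0) and Col1a1 (0.453 to 6.28) were above 0 in every library.

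Mitochondrial DNA is a small circle that is copied and transcribed inside the organelle by its own polymerases, all encoded in the nucleus. Both strands are transcribed into long precursors, and cutting out the tRNAs that lie between the other genes releases the rRNAs and mRNAs. The mRNAs encode core subunits of respiratory complexes I, III, IV and V, and the rRNAs and tRNAs translate them. Ribosomal and messenger RNAs of the organelle carry short poly(A) tails, and mature tRNAs do not.

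By the annotation of build GRCm38, 28 members lie on the + strand and 9 on the − strand, mt-Nd6 and 8 tRNAs. Neighbours overlap in places: mt-Atp8 and mt-Atp6 share 43 bases, mt-Nd4l and mt-Nd4 share 7, and mt-Nd5 and mt-Nd6 share 14 on opposite strands. Fragments were counted without regard to strand, so reads from overlapping or antisense RNA cannot be told apart.

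Levels differed widely between members. Per kilobase of gene, mt-Co1, the catalytic subunit of complex IV, had the highest median CPM over the 22 libraries, 6086, with a range of 4430 to 8353. The complex I gene mt-Nd1 followed at 4682 and mt-Cytb, the complex III subunit, at 4014. Next came the complex I genes mt-Nd2 (2022), mt-Nd5 (1237), mt-Nd4 (776) and mt-Nd6 (754). The ranges of neighbours in this order overlapped. The 2 rRNAs, mt-Rnr1 and mt-Rnr2, stood at only 220 and 190 CPM per kb. The 6 genes with the most counts (mt-Co1, mt-Cytb, mt-Nd1, mt-Nd2, mt-Nd4 and mt-Nd5) held 94.1% to 96.7% of all MT counts in a library.

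Of the tRNAs, mt-Tp, the proline tRNA, was far above the others at a median of 395 CPM per kb (94 to 872). It lies on the − strand at MT:15356-15422, next to the control region. It is printed here, 5′ to 3′, because its median level per kb over the 22 libraries lay above that of both rRNAs and of every other tRNA, although not in every single library.

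mt-Tp: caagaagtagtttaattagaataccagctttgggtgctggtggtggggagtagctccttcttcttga

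The next tRNA, mt-Th, had a median of 79.5 CPM per kb and mt-Tn, the asparagine tRNA, 40.6. Counts were low: 11 of the 22 tRNAs had at most 10 counts in any library and were not tested, and mt-Tf, mt-Ts1 and mt-Td had 0 counts in all 22 libraries, which allows up to 0.154 to 0.190 CPM at these depths. All 13 protein-coding genes and both rRNAs passed the filter on low counts in both sets. With them, 8 tRNAs were tested in the untreated set and 11 in the treated set.

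**Figure D1:**
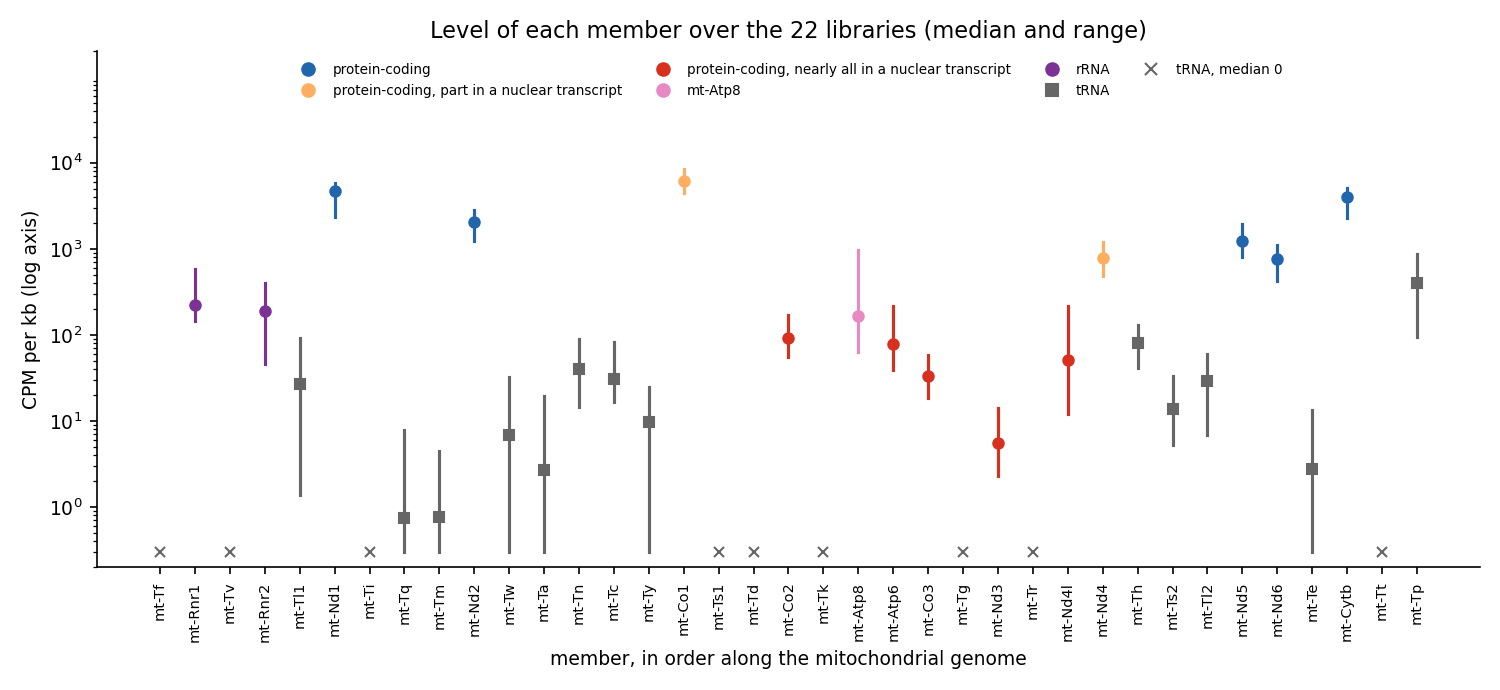
CPM per kb of gene (log axis) of the 37 members in order along the mitochondrial genome, as median (symbol) and range (line) over 22 libraries, with lines that end at the lower edge including 0. mt-Co1, mt-Nd1 and mt-Cytb are highest, at medians of 6086, 4682 and 4014, and the 5 protein-coding genes nearly wholly contained in nuclear transcripts have medians of 5.59 to 92.8.

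A further group of protein-coding members was low for their class: mt-Co2 at 92.8 CPM per kb, mt-Atp6 at 77.4, mt-Nd4l at 50.4, mt-Co3 at 33.5 and mt-Nd3 at 5.59. All 5 have a near-identical copy in the nuclear genome. That copy of a stretch of mitochondrial DNA lies on chromosome 1 of GRCm38 (chr1:24611535-24616197, − strand, 4663 bases from the first to the last gene model), where 7 annotated gene models match mt-Co1 to mt-Nd4 in order. Gm28661 (mt-Co2), Gm10925 (mt-Atp6), Gm28437 (mt-Co3), Gm10222 (mt-Nd4l) and Gm28439 (part of mt-Nd4) matched over 681, 678, 783, 294 and 876 bases with 0 mismatches. Gm28438 matched mt-Nd3 over 345 bases with 1 mismatch and Gm29216 matched mt-Co1 over 483 bases with 1. The sequences below, the first 90 bases of mt-Nd3 and of its copy, show how little separates them. The capital marks the only difference, T3C, counted from 1 at the first base of the gene.

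mt-Nd3: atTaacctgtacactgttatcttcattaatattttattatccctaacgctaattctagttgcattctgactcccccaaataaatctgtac

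Gm28438: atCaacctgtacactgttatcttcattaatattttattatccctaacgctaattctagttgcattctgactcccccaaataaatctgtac

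For comparison, a stretch of 90 bases within mt-Cytb and the matching stretch of its nuclear copy Gm11410 on chromosome 4 differ at 7 positions, in capitals: C519T, T523C, G525A, T540C, T564C, C567T and G570A, counted from the first base of the gene.

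mt-Cytb: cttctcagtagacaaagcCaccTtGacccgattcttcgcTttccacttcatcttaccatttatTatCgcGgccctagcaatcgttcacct

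Gm11410: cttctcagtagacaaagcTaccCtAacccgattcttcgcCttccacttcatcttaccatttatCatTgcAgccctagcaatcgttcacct

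The counting command kept no fragment that aligned to several places. Of all 100-base windows of each member, 97.6% to 99.9% occur unchanged in a nuclear transcript for mt-Nd3, mt-Nd4l, mt-Co2, mt-Atp6 and mt-Co3, 60.8% for mt-Nd4, 30.8% for mt-Co1 and 3.19% for mt-Nd2. The other protein-coding members have 0% by this measure. For mt-Atp8 that may be a limit of the transcript set. All but its last 43 bases, shared with mt-Atp6, fall in a stretch of 233 bases between the mt-Co2 and mt-Atp6 matches. That stretch is as long on chromosome 1 as on MT but has no gene model there, and its sequence on chromosome 1 was not examined. The 5 nearly wholly shared members had 15 to 2837 counts per library, against 4230 to 111558 for the 5 protein-coding members with few or no shared windows. Counts of the shared members cover only fragments with a unique place and are no measure of the total of these RNAs.

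The counts of copy and member stood in different ratios. As the matched parts differ at 0 or 1 bases, fragments counted on a copy may come from the MT RNA, which was not tested. Gm28438 had more counts than mt-Nd3 in 22 of 22 libraries (224 to 1065 against 15 to 92), and Gm28437 and Gm10925 exceeded mt-Co3 and mt-Atp6 in 11 libraries each. Gm10222 exceeded mt-Nd4l in 5 libraries and Gm28661 exceeded mt-Co2 in 0. Gm28439 (75 to 489 counts) and Gm29216 (52 to 167) were far below mt-Nd4 (13020 to 31622) and mt-Co1 (108169 to 234310), which they match only in part. Replicates of most shared members also differed more. Between the 2 libraries of a treated-set group, mt-Nd3 differed by up to 4.52 times, mt-Nd4l by up to 3.62, mt-Co3 by up to 2.14, mt-Atp6 by up to 2.08 and mt-Co2 by up to 1.47. mt-Atp8, most of which lies between the matches, differed by up to 12.4 times. For mt-Co1, mt-Nd1, mt-Nd2, mt-Nd4, mt-Nd5, mt-Nd6, mt-Cytb and both rRNAs the largest such ratio was 1.34.

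**Figure D2:**
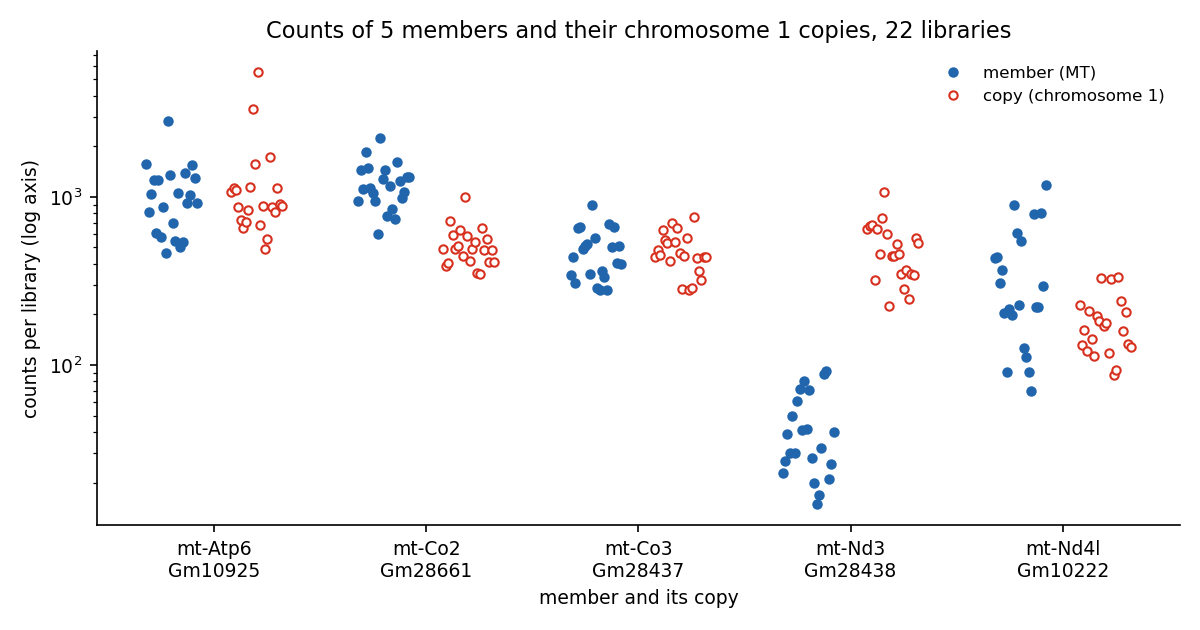
Counts per library (log axis) of 5 members (filled) and of their chromosome 1 copies (open) in 22 libraries. Gm28438 lies above mt-Nd3 in every library, and the ranges of the other 4 pairs overlap.

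The share of the library taken by MT genes differed with the compound and between genotypes. Without the compound, the genotype difference ran in opposite directions in the 2 sets. In the untreated set it was 2.99%, 2.75% and 2.87% in E14, 2.39%, 2.39% and 2.03% in Dux-KO clones 15, 22 and 52, and 2.48%, 2.31%, 2.18% and 2.60% in Dux n=1 clones 17, 22, 31 and 40. All 7 edited libraries lay below the 3 E14 libraries. The means were 2.87% ± 0.121 (SD, n = 3), 2.27% ± 0.206 (n = 3) and 2.39% ± 0.184 (n = 4), and the last 2 groups overlapped.

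In the treated set the share was 1.78% and 1.65% in WT with DMSO and 2.95% and 2.77% with GSK-3484862. It was 2.28% and 2.36% against 2.66% and 2.86% in KO22, and 2.17% and 2.39% against 3.20% and 3.06% in N22. With DMSO, KO22 and N22 thus lay above WT, whereas the untreated edited clones lay below E14. WT with DMSO also lay below the E14 libraries (2.75% to 2.99%), and the sets were not tested against each other. Within each genotype both treated libraries lay above both DMSO libraries, by 1.15 percentage points in WT, 0.445 in KO22 and 0.847 in N22. Wilson 95% intervals of single libraries reached at most 0.00842 percentage points to either side and cover counting error only. A share is relative: more MT RNA and less nuclear RNA in a library cannot be told apart by it, and neither can, in these bulk samples, fewer cells of a type and less RNA per cell.

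**Figure D3:**
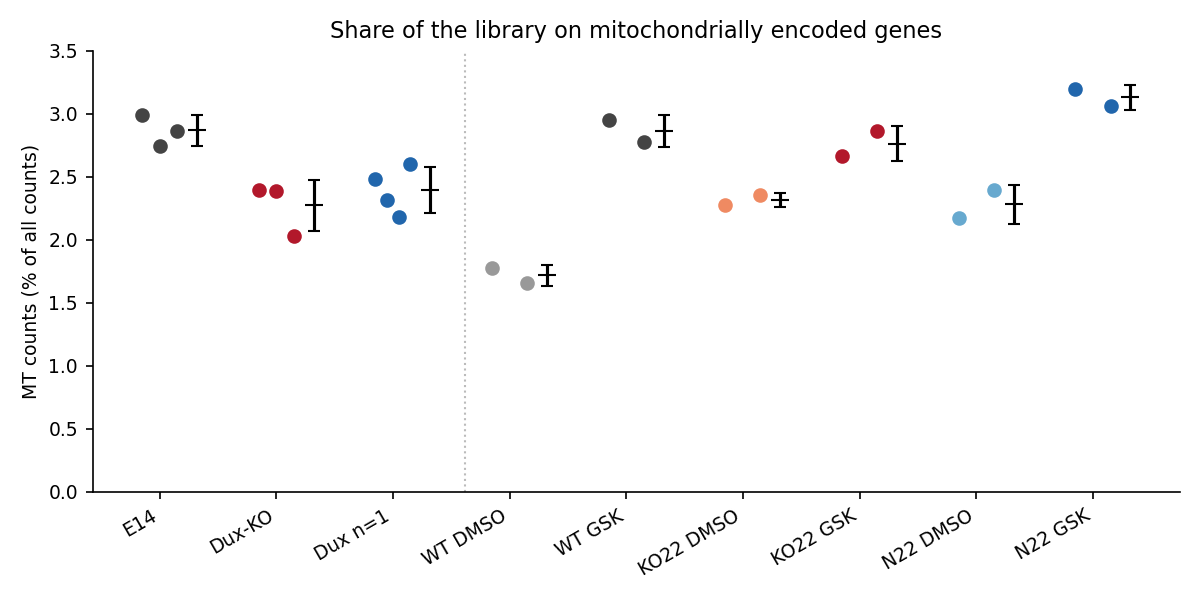
MT counts as a percentage of all counts in each library (points), with the group mean ± SD to the right of each group and the untreated set left of the dotted line. WT with DMSO is lowest, at 1.78% and 1.65%, and all 6 libraries given GSK-3484862 lie at 2.66% or above.

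The makeup of the MT counts shifted as well. mt-Co1 made up 44.6% and 45.3% of MT counts in WT with DMSO and 34.9% and 34.7% with GSK-3484862. In N22 it went from 43.8% and 42.7% to 37.8% and 38.2%. In KO22 it was low under both conditions, at 32.5% and 31.3% with DMSO and 33.0% and 31.5% with the compound. Among untreated libraries it was 43.2% to 47.0% in E14, 35.4% to 41.1% in Dux-KO and 27.4% to 44.1% in Dux n=1, the widest spread within a group.

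With GSK-3484862 most MT mRNAs and both rRNAs were higher in WT cells. Of the 13 protein-coding and 2 rRNA members, 10 rose and 0 fell, with a median log2 change of 0.97 over the 15, beside 0.00 over all 16641 genes tested. Over all genes 56.8% were called, 28.7% higher and 28.1% lower (edgeR quasi-likelihood test, adjusted p below 0.05), against 66.7% higher among these 15. The 5 that were not called were mt-Atp6 (log2 difference 1.16 ± 0.52, SE), mt-Atp8 (2.00 ± 1.35), mt-Co3 (0.97 ± 0.45), mt-Nd3 (1.91 ± 0.89) and mt-Nd4l (2.66 ± 1.21). In all 5 both treated libraries nonetheless lay above both DMSO libraries. All but mt-Atp8 are nearly wholly matched on chromosome 1, and most of mt-Atp8 lies between the matches. mt-Co2, also nearly wholly matched there, and mt-Nd4 and mt-Co1, matched in part, were called higher. Counts assigned to the copies on chromosome 1 moved too: in WT Gm10222 (1.68 ± 0.47), Gm28439 (1.59 ± 0.37) and Gm28437 (1.08 ± 0.36) were called higher. Gm10925 (1.32 ± 0.67), Gm28661 (0.71 ± 0.29), Gm29216 (0.53 ± 0.30) and Gm28438 (−0.03 ± 0.18) were not called. In KO22 only Gm10925 was called, lower (−1.87 ± 0.60). Whether shared members and their copies moved separately was not tested, nor whether fragments counted on a copy came from nuclear or MT RNA.

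Of the 7 complex I genes 5 rose, and mt-Nd3 and mt-Nd4l were not called. mt-Nd1 stood at 2310 and 2254 CPM with DMSO and at 5097 and 4569 with the compound, a log2 change of 1.02 ± 0.07 (edgeR adjusted p = 1.76e-05). The groups were far apart relative to their spread. mt-Nd2 rose by 0.97 ± 0.07 (1349 and 1295 to 2789 and 2628 CPM), mt-Nd4 by 0.84 ± 0.16, mt-Nd5 by 0.72 ± 0.14 and mt-Nd6, the only mRNA on the − strand, by 0.94 ± 0.19. The call for mt-Nd6 was lost when only the WT libraries were fitted (adjusted p = 0.0570).

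For complex III, mt-Cytb went from 2797 and 2597 CPM to 5143 and 5030, a log2 change of 0.85 ± 0.05 (edgeR adjusted p = 2.31e-06). mt-Co1 of complex IV moved least, from 7922 and 7500 CPM to 10294 and 9621, a log2 change of 0.31 ± 0.04 (adjusted p = 5.03e-05). mt-Co2 rose by 0.85 ± 0.21, a call that was lost without WT DMSO replicate 2, without WT GSK replicate 1 and with only the WT libraries (adjusted p up to 0.0756).

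The 2 rRNAs both rose, but by different amounts, although only the tRNA gene mt-Tv lies between them on the + strand. mt-Rnr2, the large rRNA, stood at 79.5 and 72.8 CPM with DMSO and at 562 and 484 with GSK-3484862, a log2 change of 2.72 ± 0.11 (edgeR adjusted p = 7.42e-07). These DMSO values were the lowest of the 22 libraries, and untreated E14 stood at 383, 291 and 408 CPM. The level also varied without the compound: untreated Dux n=1 clone 22 stood at 134 CPM, and N22 with DMSO at 307 and 319. mt-Rnr1, the small rRNA, went from 161 and 139 CPM to 226 and 201, a log2 change of 0.44 ± 0.11 (adjusted p = 0.0141). That call was lost without WT DMSO replicate 2 or WT GSK replicate 1 (adjusted p up to 0.0761).

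Among the 11 tested tRNAs, 9 rose and 1 fell in WT. Some, mt-Ta and mt-Te among them, passed the filter only through libraries given the compound. This count and the ratios of mt-Ta and mt-Te are therefore descriptions only. mt-Tl1, the leucine tRNA that follows mt-Rnr2, was counted 3 and 2 times with DMSO, and 39 and 50 times with the compound (log2 change 4.10 ± 0.51, edgeR adjusted p = 3.26e-10). mt-Ta had 1 and 0 against 10 and 25 counts, a ratio of 36.8 with an exact 95% counting interval of 6.19 to 1494, and mt-Te 1 and 0 against 15 and 11, a ratio of 27.3 (4.49 to 1121). Both intervals pool the libraries of a group and leave out the spread between them. mt-Tc had 21 and 21 against 100 and 94 counts (2.21 ± 0.27). mt-Tn, mt-Tw, mt-Ty, mt-Tp and mt-Th rose by 1.55, 2.59, 2.25, 1.15 and 0.71 on the log2 scale, and for mt-Tp the call was lost without WT DMSO replicate 1, WT DMSO replicate 2 or WT GSK replicate 1 (adjusted p up to 0.120). mt-Tl2, the other leucine tRNA, fell by 1.79 ± 0.40, from 40 and 34 counts to 12 and 9, and the serine tRNA mt-Ts2 was not called (1.09 ± 0.50).

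In KO22 the response was small. Of the 15 protein-coding and rRNA members 4 rose and 0 fell (26.7% higher), near the 24.8% of all genes called higher (edgeR; 46% called, 21.2% lower), so the number called is no result about these genes. mt-Co1 went from 7409 and 7390 CPM to 8776 and 9003 (log2 change 0.25 ± 0.04, adjusted p = 0.000324) and mt-Nd2 from 2105 and 2243 to 2675 and 2921 (0.35 ± 0.07), a call lost without KO22 DMSO replicate 1 (adjusted p = 0.0506). mt-Cytb rose by 0.18 ± 0.05, a call lost without KO22 GSK replicate 1 (adjusted p = 0.154) and under 5 other alternatives. mt-Rnr2 went from 213 and 214 CPM to 294 and 343 (0.57 ± 0.10). mt-Nd1 was not called, at 4302 and 4242 against 4478 and 4813 CPM (0.11 ± 0.07). Of the tRNAs only mt-Tc (0.89 ± 0.25) and mt-Tn (1.09 ± 0.29) were called. Without KO22 GSK replicate 1, 11 members were called instead of 6, with 9 higher and 2 lower.

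N22 lay between them. Of the 15 protein-coding and rRNA members 8 rose and 0 fell (53.3% higher, beside 26.9% higher and 26% lower, 53% in all, over all genes), with a median log2 difference of 0.54. mt-Cytb went from 3289 and 3585 CPM to 5236 and 5090 (0.54 ± 0.05, edgeR adjusted p = 5.25e-05) and mt-Nd1 from 3387 and 3725 to 5010 and 4816 (0.42 ± 0.07). mt-Rnr2 went from 307 and 319 CPM to 633 and 611 (0.94 ± 0.10). mt-Nd2, mt-Nd4, mt-Nd5, mt-Nd6 and mt-Co1 rose by 0.65, 0.57, 0.56, 0.62 and 0.22 on the log2 scale. Leaving out N22 DMSO replicate 1 or N22 GSK replicate 1 ended the calls for mt-Nd4, mt-Nd5 and mt-Nd6. N22 DMSO replicate 1 stood apart from the other 11 treated-set libraries in Rn7sk and Rpph1, nuclear RNAs without poly(A) tails (7.48 and 11.1 CPM, against at most 0.656 and 1.63), and in Lars2 (424 against at most 296), and their part in the N22 values was not tested. Of the tRNAs mt-Tl1 (39 and 38 to 88 and 128 counts), mt-Tc and mt-Tn rose, and mt-Ts2 fell by 1.20 ± 0.51, a call lost without N22 DMSO replicate 2 among 5 alternatives. mt-Te was also called higher, with 3 and 1 against 13 and 17 counts, but had at most 8 counts in any DMSO library and passed the filter only through treated ones, so its call is a description.

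**Figure D4:**
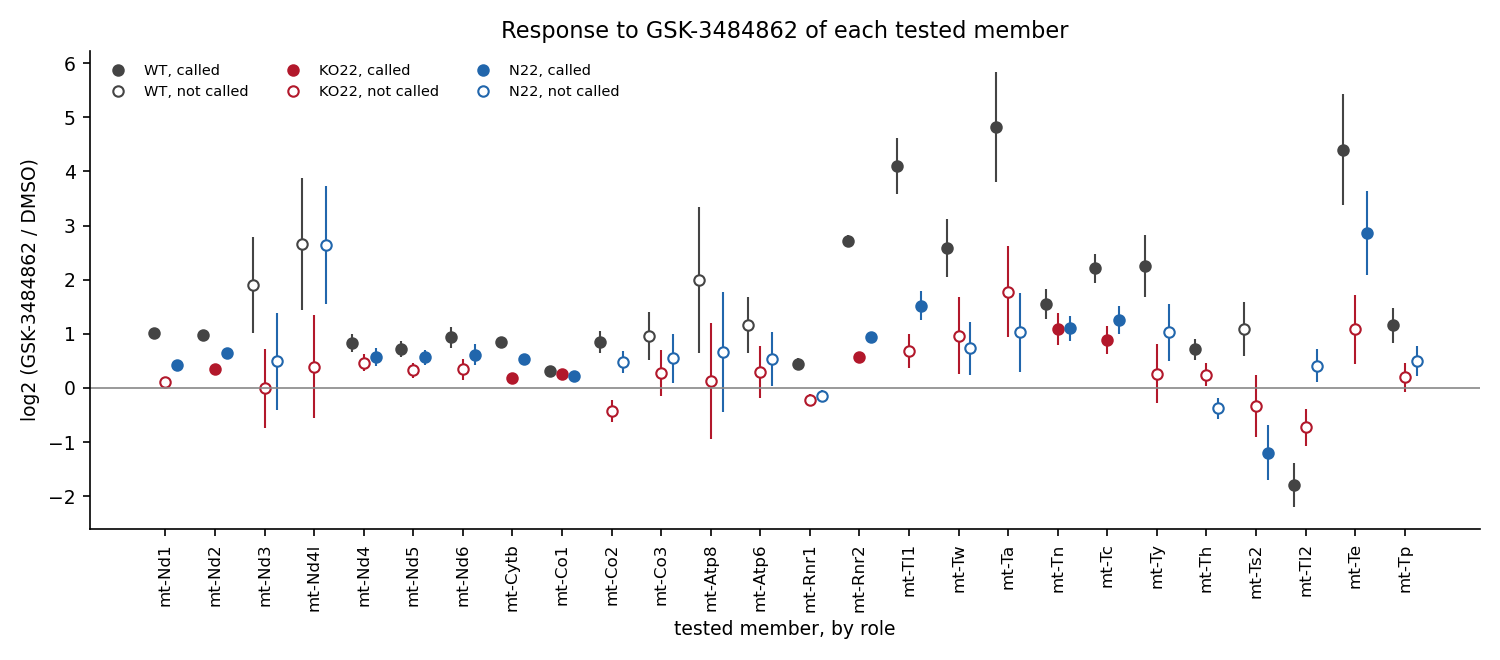
Log2 change from DMSO to GSK-3484862 ± SE for each tested member in WT (grey), KO22 (red) and N22 (blue), filled where called (edgeR adjusted p below 0.05). For mt-Nd1, mt-Nd2, mt-Cytb and mt-Rnr2 the WT value is highest, at 1.02, 0.97, 0.85 and 2.72, and mt-Co1 has nearly the same change in all 3 genotypes.

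The difference between responses was tested itself. The response in KO22 was below that in WT for 6 of the 15 protein-coding and rRNA members (40%) and above it for 0, where 31.8% of all genes were called, 13.5% lower and 18.3% higher. The 6 are mt-Rnr1 (−0.66 ± 0.16), mt-Co2 (−1.28 ± 0.29), mt-Nd1 (−0.91 ± 0.10, edgeR adjusted p = 0.000523), mt-Cytb (−0.67 ± 0.08), mt-Nd2 (−0.62 ± 0.10) and mt-Rnr2 (−2.15 ± 0.14). Of the tested tRNAs mt-Tl1, mt-Tc, mt-Te and mt-Ty were called lower, of which mt-Te passed the filter only through treated libraries. The calls for mt-Nd1, mt-Cytb, mt-Nd2, mt-Rnr2, mt-Tc and mt-Tl1 held in all 19 alternatives, and those for mt-Co2, mt-Rnr1, mt-Te and mt-Ty did not. Without KO22 DMSO replicate 2, 6 members were called in place of 10, tRNAs included. For mt-Co1 no difference was called (−0.05 ± 0.06, 95% interval −0.16 to 0.06). The response in N22 was below that in WT for 3 of the 15 (20%), mt-Rnr2 (−1.77 ± 0.14), mt-Nd1 (−0.60 ± 0.10) and mt-Cytb (−0.31 ± 0.08), and above it for 0, where 11.1% of all genes were called, 5.26% lower and 5.82% higher. Of the tested tRNAs mt-Tl1, mt-Ts2 and mt-Th were lower and mt-Tl2 higher. Of these 7 only mt-Rnr2 kept its call in all 19 alternatives. The calls for mt-Nd1 and mt-Tl1 were lost without WT DMSO replicate 2. All differences from the WT response use the WT libraries with DMSO. These were the lowest of the 22 libraries in CPM for mt-Rnr2, mt-Nd1, mt-Nd2, mt-Cytb, mt-Tl1 and mt-Tc. Without N22 GSK replicate 2, 3 of the 26 members were called. Between N22 and KO22 only mt-Cytb was called, with the higher response in N22 (0.36 ± 0.08, adjusted p = 0.0144), where 18.6% of all genes were called, 7.81% higher and 10.8% lower. That call was lost without N22 GSK replicate 1, KO22 GSK replicate 1 or KO22 GSK replicate 2.

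The genotypes were also compared within DMSO and within the compound. These comparisons use the same DMSO and GSK-3484862 libraries as the responses and are no separate evidence for them. With DMSO, 6 of the 15 protein-coding and rRNA members were higher in KO22 than in WT and 0 lower (40% higher, beside 23.4% higher and 28.5% lower, 51.9% in all, over all genes). They were mt-Rnr2 (1.47 ± 0.11), mt-Nd1 (0.89 ± 0.07), mt-Cytb (0.80 ± 0.05), mt-Co2 (0.80 ± 0.21), mt-Nd2 (0.70 ± 0.07) and mt-Nd4 (0.60 ± 0.16). The calls for mt-Co2 and mt-Nd4 were lost without KO22 DMSO replicate 1, KO22 DMSO replicate 2 or WT DMSO replicate 2, and the one for mt-Nd4 also without WT DMSO replicate 1. mt-Co1 was not called (−0.08 ± 0.04), with 7409 and 7390 CPM in KO22 and 7922 and 7500 in WT. Among tRNAs mt-Tl1 had 32 and 28 counts in KO22 against 3 and 2 in WT, and mt-Tp 396 and 447 against 153 and 122.

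In N22 with DMSO 6 of the 15 were also higher than in WT and 0 lower (40%, beside 11.5% higher and 13.9% lower, 25.4% in all, over all genes): mt-Rnr2 (2.04 ± 0.11), mt-Nd1 (0.64 ± 0.07), mt-Rnr1 (0.56 ± 0.11), mt-Nd2 (0.37 ± 0.07), mt-Co1 (0.36 ± 0.04) and mt-Cytb (0.35 ± 0.05). The call for mt-Nd2 was lost without WT DMSO replicate 2, and the one for mt-Rnr1 without that library or N22 DMSO replicate 1. With only the compared groups mt-Rnr1 and mt-Cytb (adjusted p = 0.0947) were not called. Set against KO22, N22 with DMSO had more mt-Co1 (0.43 ± 0.04) and mt-Rnr2 (0.57 ± 0.10) and less mt-Cytb (−0.45 ± 0.05), mt-Nd2 (−0.33 ± 0.07) and mt-Nd1 (−0.25 ± 0.07). That made 2 of 15 higher and 3 lower, where 39.1% of all genes were called, 21.1% higher and 18% lower. Without KO22 DMSO replicate 2 neither mt-Nd1 nor mt-Nd2 was called, and the mt-Nd1 call was lost in 7 of 19 alternatives.

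With GSK-3484862, KO22 against WT had 0 of the 15 higher and 2 lower (12.3% and 10.1% of all genes, 22.4% in all): mt-Rnr2 (−0.68 ± 0.10) and mt-Co1 (−0.13 ± 0.04). The mt-Co1 call was lost in 8 of 19 alternatives and the mt-Rnr2 call with only the compared groups (adjusted p = 0.118). N22 against WT had 1 higher and 0 lower (5.05% and 4.6% of all genes, 9.65% in all), mt-Co1 (0.27 ± 0.04), a call lost without N22 GSK replicate 1 (adjusted p = 0.0667). N22 against KO22 had 2 higher and 0 lower (11.7% and 12.9% of all genes, 24.6% in all), mt-Co1 (0.40 ± 0.04) and mt-Rnr2 (0.95 ± 0.10). mt-Nd1 lay within 4478 to 5097 CPM and mt-Cytb within 5030 to 5495 in all 6 treated libraries, and neither was called between genotypes. For mt-Nd1 the 95% interval of the difference was −0.16 to 0.11 for KO22 and −0.10 to 0.17 for N22, both against WT.

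**Figure D5:**
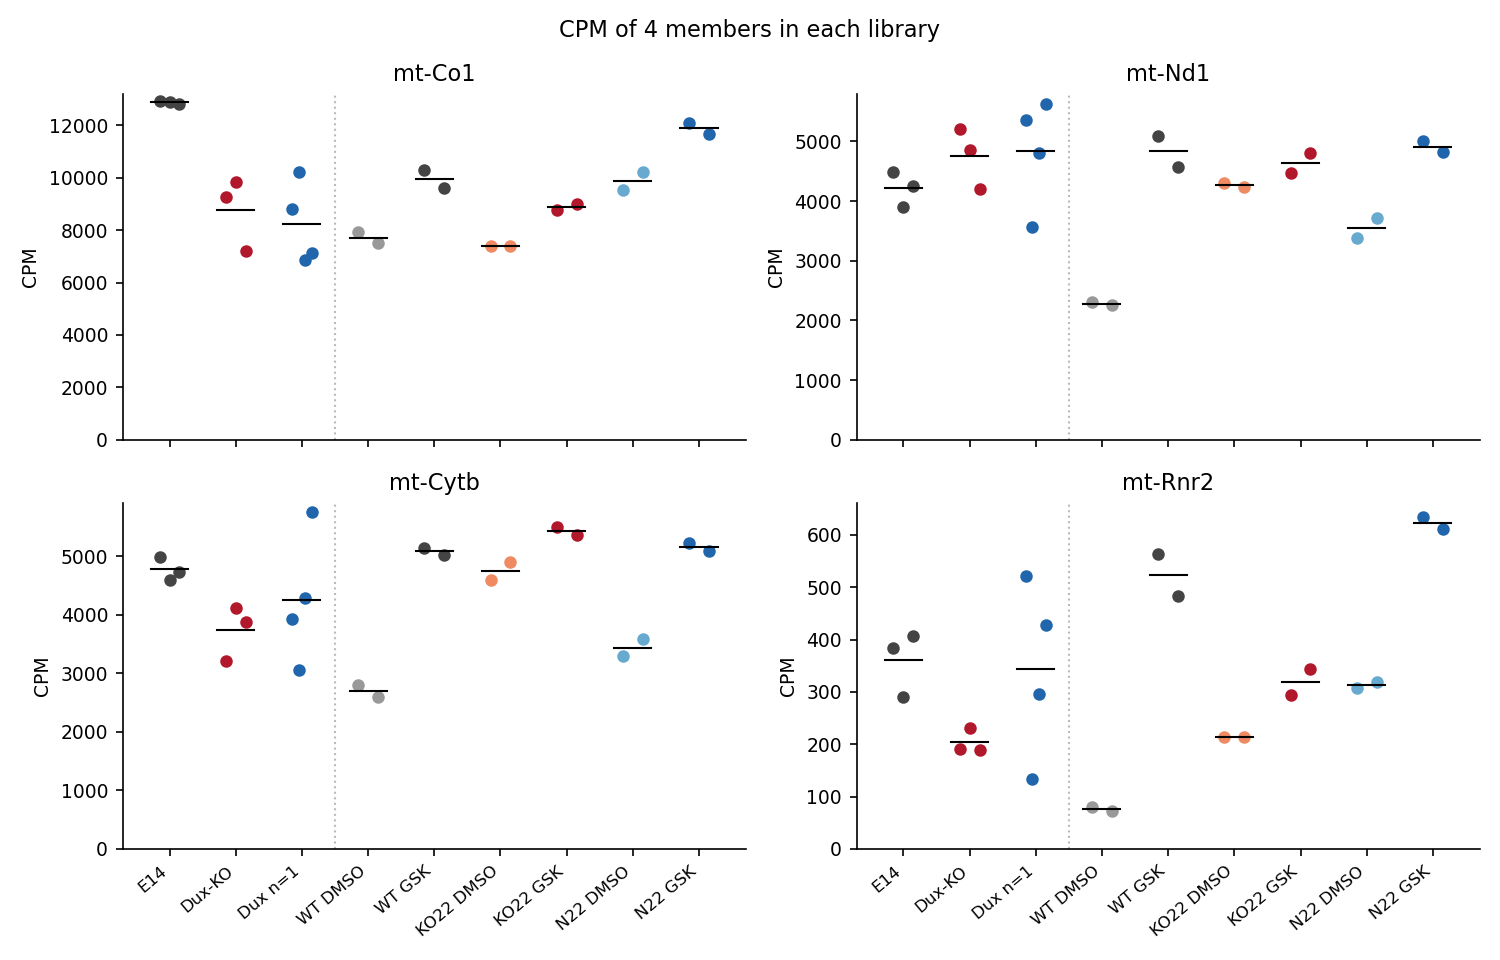
CPM of mt-Co1, mt-Nd1, mt-Cytb and mt-Rnr2 in each library (points) with the group mean (line), untreated set left of the dotted line. mt-Nd1 and mt-Cytb are lowest in WT with DMSO and close together in all 6 libraries given GSK-3484862, while mt-Co1 in E14 (12806 to 12905) lies above all edited untreated clones.

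In untreated cells mt-Co1 was lower in both edited genotypes. It stood at 12905, 12902 and 12806 CPM in E14, at 9279, 9833 and 7200 in Dux-KO and at 8820, 10198, 6845 and 7118 in Dux n=1, so every edited clone lay below every E14 library. In Dux-KO 4 of the 15 protein-coding and rRNA members fell and 0 rose (26.7% lower, beside 11.1% lower and 9.26% higher, 20.4% in all, over all genes): mt-Co1 (−0.60 ± 0.15, edgeR adjusted p = 0.0175), mt-Nd4 (−0.54 ± 0.15), mt-Nd5 (−0.53 ± 0.13) and mt-Nd6 (−0.64 ± 0.15). In Dux n=1 only mt-Co1 fell (−0.69 ± 0.14, adjusted p = 0.0160), 1 of 15 or 6.67%, near the 4.28% of all genes called lower, and 0 rose (4.88% of all genes, 9.16% called in all). Not every member was lower: mt-Nd1 stood at 4484, 3900 and 4253 CPM in E14 and at 5211, 4849 and 4206 in Dux-KO (0.13 ± 0.17), with overlapping groups.

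These calls rest on single E14 libraries and on the treatment of base composition. Without E14 replicate 1, 0 members were called in either comparison, and without E14 replicate 3, 1 in Dux-KO and 0 in Dux n=1. Without E14 replicate 2, 0 were called in Dux n=1, and without Dux-KO clone 52, 2 in Dux-KO, mt-Co1 not among them. With an offset for the GC content of genes the 4 members called in Dux-KO turned to log2 differences of 0.0057 (mt-Co1), 0.36 (mt-Nd4), 0.28 (mt-Nd5) and 0.38 (mt-Nd6), none called. In their place mt-Nd1 (0.91), mt-Nd2 (0.96), mt-Co3 (1.28) and mt-Nd3 (1.25) were called higher. In Dux n=1 mt-Co1 then stood at −0.30, not called, and mt-Nd3 (1.71) was called higher. MT genes are poor in G and C, at 31.9% to 41.1% over the protein-coding members, where the 10th percentile of the genes tested is 41.5%. The share of MT counts, lower in the edited clones, was taken from counts without this offset. The direction for single members depended on the offset, and its part in the share was not tested.

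E14 libraries also differed among themselves in RNAs without poly(A) tails. Rn7sk, a nuclear non-coding RNA, stood at 51.1, 1.81 and 66.6 CPM in E14 replicates 1 to 3 and at 0 to 8.38 in the other 19 libraries, and Rpph1, the RNase P RNA, at 42.3, 1.53 and 81.0 against 0.179 to 14.8. mt-Rnr1 went the same way in E14, at 426, 314 and 555 CPM. The part of such RNAs in the E14 comparisons was not tested. The summed CPM of the 9 fibroblast markers also differed, at 192 to 206 in E14, 288 to 329.5 in Dux-KO (2 of 4 tested called higher, 0 lower) and 224 to 338 in Dux n=1, and its part was not tested. Most of this sum is Vim (131 to 319 CPM over all libraries). Col3a1, Postn, Dcn and Lum were at 0 in every E14 and Dux-KO library. Thy1 (8.48 to 9.73 in E14, 19.4 to 50.1 in Dux-KO) and Col1a1 (0.453 to 0.820 and 1.47 to 3.51) were higher in Dux-KO. mt-Rnr1 was not called in Dux-KO (−0.67 ± 0.31) or Dux n=1 (−0.63 ± 0.29).

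Between the edited genotypes 0 of 23 members were called by edgeR, as were 0% of all genes. At an unadjusted p below 0.05 there were 5, but the share of all genes at that cutoff is not given, so this number is no result about the members. DESeq2 also called 0. Clones of 1 genotype spread widely. mt-Rnr2 stood at 521, 134, 296 and 427 CPM in Dux n=1 clones 17, 22, 31 and 40, and mt-Tl1, which follows it on the genome, had 53, 4, 35 and 39 counts, with clone 22 lowest in both.

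The nuclear genes that copy and express mitochondrial DNA were read from 5 lists, and none of the lists rose as a whole. In WT with GSK-3484862, where 28.7% of all genes were called higher and 28.1% lower, 0 of 15 genes of mtDNA replication and packaging rose and 8 fell, among them Polg, the replicative polymerase (−0.13 ± 0.05), its accessory subunit Polg2 (−1.03 ± 0.17) and Ssbp1, the single-strand binding protein (−0.22 ± 0.05). The helicase Twnk was not called (0.02 ± 0.06). Of 9 transcription genes 1 rose and 2 fell. Tfb2m, an initiation factor, rose by 0.37 ± 0.08, while the RNA polymerase Polrmt (−0.13 ± 0.06) and Tfam, which packages mtDNA and starts transcription, (−0.13 ± 0.05) fell slightly. The median log2 differences of both lists were −0.13 and −0.07, beside 0.00 for all genes.

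Of 39 genes for processing and stability of mitochondrial RNA, 9 rose and 12 fell in WT, shares near those over all genes. Elac2, which cuts tRNA 3′ ends, rose by 0.50 ± 0.04 and Trmt10c, a subunit of mitochondrial RNase P, by 0.34 ± 0.08, while Hsd17b10 of the same enzyme fell by 0.81 ± 0.06. Lrpprc, which stabilises mitochondrial mRNAs, rose by 0.15 ± 0.04, and its partner Slirp was not called (0.07 ± 0.10). Of 19 mitochondrial aminoacyl-tRNA synthetases 2 rose and 9 fell, and of 10 tested biogenesis regulators 3 rose, Myc (0.90 ± 0.05) and Sirt1 (0.54 ± 0.05) among them, and 6 fell, Ppargc1b (−1.77 ± 0.19) among them. In KO22 the 5 lists had 0, 0, 2, 2 and 0 genes higher and 4, 2, 12, 8 and 3 lower, in the order above, beside 24.8% higher and 21.2% lower over all genes. In N22 they had 0, 0, 7, 1 and 1 higher and 6, 3, 11, 10 and 6 lower, beside 26.9% and 26%.

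In untreated Dux-KO cells against E14 the 5 lists had 0, 0, 2, 2 and 1 genes higher and 0, 1, 3, 1 and 2 lower of 15, 9, 39, 19 and 9 tested, beside 9.26% higher and 11.1% lower over all genes. Of the processing genes Pnpt1 (−0.76 ± 0.09) and Trmt10c (−0.68 ± 0.13) fell and Fastk (0.50 ± 0.11) rose. Mterf3, of the mitochondrial termination factor family, fell by 0.85 ± 0.16, and Polrmt, Tfam, Polg and Twnk were not called. Of the synthetases Vars2 (0.82 ± 0.14) and Cars2 (0.34 ± 0.11) rose and Lars2 fell. Lars2, the mitochondrial leucyl-tRNA synthetase, stood at 898, 488 and 1236 CPM in E14, at 188, 141 and 261 in Dux-KO (−2.21 ± 0.30) and at 203, 231, 232 and 283 in Dux n=1 (−1.92 ± 0.27). Within E14 it was lowest in replicate 2, as were Rn7sk and mt-Rnr1.

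Other RNAs moved with the compound beside the MT genes. Malat1, a nuclear-retained RNA looked up after values were seen, fell in WT (347 and 306 to 183 and 181 CPM), KO22 (235 and 214 to 91.7 and 87.4) and N22 (255 and 197 to 135 and 134), while the nuclear RNA Neat1 rose in all 3. Summed over 8 ES cell markers, CPM ranged from 5140 to 5517 with DMSO and from 4172 to 4332 with GSK-3484862 (6 libraries each). For 7 primitive endoderm markers it was 4.91 to 9.40 and 10.9 to 20.5, with Foxa2 at 0 in 3 of 22 libraries. For 7 trophoblast markers the ranges over all 3 genotypes overlapped, at 43.9 to 110 and 73.0 to 119, with Elf5 at 0 in 18 of 22 libraries. Within KO22 the sum rose from 45.7 and 43.9 with DMSO to 73.0 and 76.0 with the compound. It also rose within N22, from 81.5 and 80.8 to 115 and 112, and overlapped within WT, at 106 and 110 against 102 and 119. The part of these shifts in the rise of MT counts was not tested.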

How the data were processed

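RNA was sequenced from 22 mouse ES cell libraries, made with the VAHTS Universal V6 kit per the labels' protocols. The authors' processing used fastp 0.23.2, HISAT2 2.1.0 and featureCounts 2.0.1 on GRCm38, and DESeq2 1.40.2, by the submitters' processing notes. What was deposited is, for every gene of Ensembl 84, the unnormalized count of exon fragments, per the file headers. The commands there ask for paired reads and, in 0 of 22 files, for multi-mapping reads, overlaps or strand.

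Groups came from sample titles. Symbols for 47224 of 47729 identifiers, all 37 members included, came from the reference name table. CPM is a count scaled to a common library total. Depth is 15803194 to 19427794 counts per library, and intervals and the floor of 3 counts for a zero cover counting error only, since reads carry no molecular identifiers. Libraries of 1 group differed beyond sampling noise (chi-square divided by its degrees of freedom was 2.72 to 58.5), and 0 pairs were identical.

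Each set was fitted on its own with edgeR 4.0.16 in R 4.3.3 (TMM scaling, low counts removed by filterByExpr at min.count 10, quasi-likelihood test with robust set), over 14796 genes in the untreated and 16641 in the treated set. Calls in the 15 comparisons needed an adjusted p (Benjamini-Hochberg, over all genes tested) below 0.05. The share of MT counts carries no test. Alternatives were DESeq2 1.42.0, RLE factors, factors from nuclear genes only, no filter on low counts, a GC content offset per library (lowess span 0.3), only the compared groups, a replicate block in the treated set, and each library left out. Where 1 library remained, it was assumed to vary like the others. The script was tested on simulated data.

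Member sequences and nuclear matches came from GENCODE M21 transcripts (GRCm38), compared with BLAST 2.17.0 and by exact windows. No genome sequence was used here. All MT genes are reported. From the nuclear lists the rule names Polrmt, Tfam, Tfb2m, Polg, Twnk, Lrpprc, Slirp and, per list, up to 3 called genes with the smallest p in the WT response and in Dux-KO against E14. Values are given for some of these. Malat1 and Neat1 were chosen after their values were seen. The members, lists and tests were chosen with earlier results of these data known.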

Additional observations from a re-analysis of the deposited data

Results flagged for a closer look

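In Dux n=1 clone 40, mt-Atp8 stood at 96.6 CPM, apart from 23.1 to 33.9 in the other 3 clones, and mt-Atp6 at 146 CPM, apart from 29.2 to 45.7. Both lie side by side: mt-Atp6 is matched on chromosome 1, and most of mt-Atp8 lies between the matches there. Dixon's criterion was applied to 24 sets of values in the 4 Dux n=1 libraries, the only group large enough, and these 2 were beyond it, where chance flags about 1 in 20.

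Responses to GSK-3484862 that differed between genotypes by edgeR's interaction test are flagged next, as the log2 response in KO22 or N22 minus that in WT. In KO22 they were −3.42 for mt-Tl1, −3.32 for mt-Te (1 and 0 counts in WT with DMSO, adjusted p = 0.0498), −2.15 for mt-Rnr2, −1.99 for mt-Ty (adjusted p = 0.0492), −1.32 for mt-Tc, −1.28 for mt-Co2, −0.91 for mt-Nd1, −0.67 for mt-Cytb, −0.66 for mt-Rnr1 and −0.62 for mt-Nd2. The calls for mt-Te and mt-Ty were lost in 15 and 10 of 19 alternatives. In N22 they were −2.58 for mt-Tl1, −2.29 for mt-Ts2, −1.77 for mt-Rnr2, −1.08 for mt-Th, −0.60 for mt-Nd1, −0.31 for mt-Cytb and, in the other direction, 2.21 for mt-Tl2. For mt-Cytb the response in N22 exceeded that in KO22 by 0.36.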

How the results depend on the processing

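Of 104 called differences of single members, 53 were called in all alternatives run. Over all alternatives 1780 of 1960 values kept direction and call, 176 lost the call and 4 turned over, all with the GC content offset in Dux-KO against E14: mt-Co1 to 0.0057, mt-Nd4 to 0.36, mt-Nd5 to 0.28 and mt-Nd6 to 0.38. That offset turned the split in Dux-KO against E14 from 0 higher and 4 lower to 4 higher and 0 lower, and in Dux n=1 against E14 from 0 and 1 to 1 and 0. It turned KO22 against WT with GSK-3484862 from 1 higher and 4 lower to 3 and 4, and N22 against KO22 with GSK-3484862 from 6 and 0 to 6 and 2. The cause was not tested. Differences in the share of MT counts moved by less than the spread between replicates in each alternative run for them. The shares given here were taken from counts without the GC content offset.

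Numbers of called members under an alternative, here and above, are given without the share of all genes called under it. They describe how far the calls hold and are no result about the members. These numbers moved by over 1.5 times as follows. In Dux-KO against E14 there were 4, and 8 with only the compared groups (fewer libraries), with 0 to 6 when a library was left out. In Dux n=1 against E14 there was 1, and 2 with DESeq2 and with only the compared groups, with 0 to 2 when a library was left out. For the response in N22 minus that in KO22 there was 1, and 5 with DESeq2, 2 without the filter, 6 with the GC content offset (4 higher, 2 lower) and 3 with only the compared groups, with 0 without N22 GSK replicate 1 and 2 to 4 without N22 DMSO replicate 1 or 2, WT GSK replicate 1 or 2 or KO22 GSK replicate 1 or 2. For N22 against WT with GSK-3484862 there were 3, and 1 with DESeq2, 5 with the GC content offset (4 higher, 1 lower) and 7 with only the compared groups. With a library left out the number was 4 to 11 for the response in KO22, 6 to 10 for KO22 minus WT (6 without KO22 DMSO replicate 2), 3 to 8 for N22 minus WT (3 without N22 GSK replicate 2), 5 to 9 for N22 against KO22 with DMSO (5 without KO22 DMSO replicate 1) and 3 to 6 for KO22 against WT with GSK-3484862 (3 without WT GSK replicate 1).

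Libraries with the same replicate number did not deviate together (correlations −0.0168 to 0.0294), so the numbers do not pair them. With the replicate block 22 members were called for the response in WT, 5 in KO22 and 11 in N22, 8, 6 and 1 for the response differences, 10, 10 and 7 for the genotypes with DMSO and 4, 3 and 6 with GSK-3484862. The share of all genes called with the block is not given, so these counts too describe the calls only. Depth limits the tRNAs, of which 11 could not be tested.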
